A study of Mus musculus with 7 samples.

Results

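The genes described here are 10 transcription regulators that sustain self-renewal in myeloid leukemia: Hoxa5, Hoxa7, Hoxa9, Hoxa10, Meis1, Pbx3, Mef2c, Myb, Eya1 and Lmo2. They were found by gene symbol in the platform annotation, which gave 19 of the 25697 probes on the array (10 of 16593 genes with a symbol), and each probe was kept apart. The samples were mouse cells labelled as leukemia stem cells, freshly isolated and held in suspension for 6 h. The treated group received the code-named small molecule BRD7116 at 5 µM in 0.2% DMSO (5 arrays), and the control group received the 0.2% DMSO vehicle (2 arrays). RNA was read on Illumina mouse BeadChips, which measure each transcript by 1 or more probes, and the question was whether the self-renewal genes differed after treatment. The labels name no mouse strain, no driver oncogene and no number of animals, and nothing in them shows that replicates came from separate cultures, so the p-values cover no more than the variation among these arrays, part or all of which may be technical.

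HOXA proteins are homeobox factors that bind DNA weakly alone and more firmly with TALE homeobox partners, the MEIS and PBX proteins. In blood stem and progenitor cells this group is active early and is turned off during maturation, and in leukemias driven by MLL fusion proteins the HOXA cluster and Meis1 stay on and are required for leukemic self-renewal. Mef2c, Myb, Eya1 and Lmo2 belong to the same self-renewal programme or to the partner complexes of early blood cells.

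The arrays came from 3 chips, of which 1 gave weak signal and held BRD7116 replicate 1 and DMSO replicate 2. On this weak chip 4585 and 4412 probes were detected (detection p under 0.05), against 6749 to 8451 on the other arrays, and its brightest probe reached 4704 intensity units against at least 27582 elsewhere. A second chip held BRD7116 replicate 2 with DMSO replicate 1, and BRD7116 replicates 3, 4 and 5 shared the third with no control. Differences are therefore also given within the weak chip and within the second chip, as 1 array against 1 with no test, where the probe was detected on both arrays. Of the 7 markers of granulocyte-monocyte progenitors with a probe, 6 were detected on all 7 arrays (Ctsg, Elane, Fcgr2b, Fcgr3, Mpo and Prtn3). Cd34, a surface marker of stem and progenitor cells, was not detected on any array, and Kit had no probe under that symbol. The 5 T cell markers with a probe were detected on no array.

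The 4 Hoxa genes lie close together in the HOXA cluster on mouse chromosome 6. The array files give no probe sequences, so the 250 bases before each RefSeq start (GRCm38.p6) are shown, because Hoxa5, Hoxa7 and Hoxa9 each had a probe detected on all arrays while Hoxa10 had none detected on any. Letters run 5′ to 3′ along the gene, and capitals mark CpG pairs, the sites of DNA methylation in mammals.
Hoxa5 promoter (chr6:52204588-52204837, minus strand): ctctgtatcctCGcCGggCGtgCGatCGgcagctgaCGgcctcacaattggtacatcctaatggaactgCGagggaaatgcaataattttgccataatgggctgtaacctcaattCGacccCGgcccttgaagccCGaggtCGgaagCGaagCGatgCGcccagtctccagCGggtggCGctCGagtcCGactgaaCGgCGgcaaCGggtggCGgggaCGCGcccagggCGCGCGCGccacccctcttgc
Hoxa7 promoter (chr6:52218574-52218823, minus strand): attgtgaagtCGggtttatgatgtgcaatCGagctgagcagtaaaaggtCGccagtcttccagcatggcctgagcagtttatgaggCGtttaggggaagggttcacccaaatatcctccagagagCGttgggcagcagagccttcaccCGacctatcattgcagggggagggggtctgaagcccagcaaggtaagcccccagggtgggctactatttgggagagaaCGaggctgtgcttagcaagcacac
Hoxa9 promoter (chr6:52227371-52227620, minus strand): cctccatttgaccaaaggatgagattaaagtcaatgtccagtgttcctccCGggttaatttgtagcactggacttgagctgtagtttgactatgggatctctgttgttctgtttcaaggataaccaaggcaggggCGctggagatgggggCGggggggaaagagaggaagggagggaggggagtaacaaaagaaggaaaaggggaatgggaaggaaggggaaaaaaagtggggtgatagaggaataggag
Hoxa10 promoter (chr6:52234940-52235189, minus strand): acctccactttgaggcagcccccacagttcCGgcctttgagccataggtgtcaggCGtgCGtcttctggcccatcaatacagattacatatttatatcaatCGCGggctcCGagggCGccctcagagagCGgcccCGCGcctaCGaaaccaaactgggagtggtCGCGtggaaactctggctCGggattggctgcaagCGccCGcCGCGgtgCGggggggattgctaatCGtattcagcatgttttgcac
The Hoxa10 stretch belongs to the more downstream of its 2 listed starts. These stretches hold 28 CpG pairs for Hoxa5, 7 for Hoxa7, 3 for Hoxa9 and 20 for Hoxa10. The stretch before the other Hoxa10 start, not printed, holds 7. Methylation was not measured. Over the whole table of 32851 windows of 300 bases (250 before and 50 after the start) the median was 7 CpG pairs. The table held 10 such windows for 7 of the 10 genes, and entries for Pbx3, Eya1 and Lmo2 were not used here. On both strands, the MEIS core TGACAG was found in 0 of the 10 windows and in 19.2% of all windows, and the joint PBX and HOX letters TGATTTAT in 0 of the 10 and 0.98% of all. TATAAA was found in 3 of the 10, the printed Hoxa10 window and 2 of 3 Mef2c windows, and in 13.6% of all. No matches of different motifs overlapped, since TATAAA was the only motif found, and a match or its absence describes these letters only.

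Detection on at least 2 arrays was required for a test, and 12 of the 19 probes, for 9 genes, met this. Of these 12, 6 were detected on all 7 arrays, against 35.9% of all tested probes, and they report Hoxa5, Hoxa7, Hoxa9, Meis1, Mef2c and Lmo2. Of these 12, 1 (Hoxa9 probe ILMN_1258462) was detected on treated arrays alone. The other 7 probes were described by their values only: 5 were detected on no array and 2 on 1 BRD7116 array each. Hoxa10 was the gene left without a tested probe. Its probes had detection p-values from 0.163 to 0.909 (ILMN_2672443) and from 0.751 to 0.939 (ILMN_2646967), so that no array of either group showed Hoxa10 above background.

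**Figure D1:**
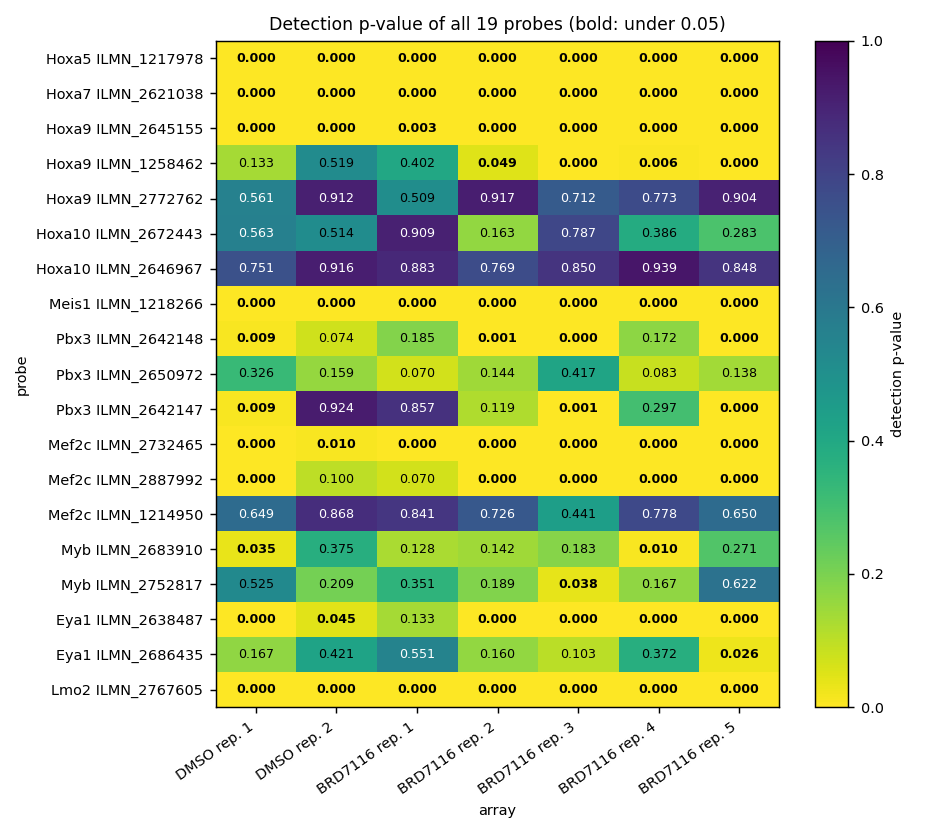
Detection p-value of each of the 19 probes (rows) on each of the 7 arrays (columns), coloured from 0 to 1, with values under 0.05 in bold. Hoxa5, Hoxa7, Meis1, Lmo2 and 1 probe each of Hoxa9 and Mef2c are under 0.05 on every array, and both Hoxa10 probes are above it on every array.

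No difference between BRD7116 and DMSO was resolved for any of the 12 tested probes. With limma, 0 of the 12 passed an adjusted p of 0.05, against 0% of all 8613 tested probes, and 0 of the 12 had an unadjusted p under 0.05, against 6.66% of all (3.23% higher and 3.44% lower). All 12 confidence intervals of the difference included 0, and in 7 probes the standard error was larger than the difference itself. The mean was higher with BRD7116 in 8 of the 12 and lower in 4. Counted in the 8, and in the median that follows, is Hoxa9 probe ILMN_1258462. It met the detection requirement only through the treated arrays, so its place in these counts carries no weight. The median log2 difference was 0.09 for the 12 probes and 0.07 for all tested probes, and the median size of the difference regardless of sign was 0.14 and 0.26. Between these arrays the precision was limited, since the 95% interval of a log2 difference reached 0.61 to either side at the median of the 12 probes and 0.63 at that of all probes.

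Levels below are background-corrected, quantile-normalized intensities on the log2 scale, given for BRD7116 replicates 1 to 5 and then for DMSO replicates 1 and 2. The lowest level at which any probe was detected lay between 5.23 and 5.42 on the 5 stronger arrays, and was 6.11 and 6.20 on the weak chip. Levels of different probes are not compared with each other.

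Hoxa5, a homeobox factor from the middle of the cluster that is transcribed in myeloid progenitors, was detected on all arrays. Its intensities were 288, 908, 772, 503 and 1028 with BRD7116 and 761 and 298 with DMSO, the low values being those of the weak chip. After normalization its levels were 9.0, 8.97, 8.85, 8.76 and 8.96 with BRD7116 and 9.18 and 8.88 with DMSO. The treated values lay on both sides of the lower control, and DMSO replicate 1 was the highest of the 7. The means were 8.91 ± 0.10 (SD, n = 5) and 9.03 ± 0.22 (SD, n = 2). The log2 difference was -0.12 (standard error 0.18, adjusted p = 0.83, limma), or 0.918-fold with a 95% interval from 0.688 to 1.22. It was 0.12 within the weak chip and -0.22 within the second chip, and 0.031 without DMSO replicate 1.

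Hoxa7, a nearby cluster gene also transcribed in MLL-fusion leukemias, had levels of 8.48, 7.43, 7.93, 7.90 and 7.78 with BRD7116 and 7.60 and 8.27 with DMSO. The highest values of both groups were those of the weak chip, and the lowest of both were those of the second chip. The difference was -0.03 (standard error 0.31, adjusted p = 0.976, limma), with a fold of 0.98 and an interval from 0.6 to 1.6. With chip as a block the difference was 0.019 and its standard error was 0.19. The weak chip alone gave 0.21 and the second chip -0.17.

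Hoxa9, the cluster gene most closely tied to poor outcome and self-renewal in acute myeloid leukemia, was covered by 3 probes that gave different results. Probe ILMN_2645155, detected on all arrays, had levels of 7.25, 7.45, 7.16, 7.05 and 7.19 with BRD7116 and 7.32 and 8.14 with DMSO. The means were 7.22 ± 0.15 (SD, n = 5) and 7.73 ± 0.58 (SD, n = 2). DMSO replicate 2 stood above every other array, and DMSO replicate 1 lay within the treated range. The log2 difference was -0.51 (standard error 0.25, unadjusted p = 0.0749, adjusted p = 0.689, limma), or 0.702-fold with an interval from 0.47 to 1.05. Within the weak chip it was -0.89 and within the second chip 0.13. Without DMSO replicate 2 the difference was -0.10, without DMSO replicate 1 it was -0.92, and without the weak chip it was -0.11. Each of these fits kept a single control, which without DMSO replicate 1 was the weak-chip array.

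The second Hoxa9 probe, ILMN_1258462, had its higher mean with BRD7116. Its levels were 5.01, 5.32, 6.63, 5.71 and 5.99 with BRD7116 and 5.19 and 4.92 with DMSO. It was detected on 4 of 5 treated arrays and on neither control. The 3 highest values were those of the third chip, which held no control, and BRD7116 replicate 1 lay below DMSO replicate 1, so that the groups overlapped. Both controls were not above background, and the smallest fold that this allows came out under 1, so that neither a fold nor a log2 difference is given. The probe met the detection requirement only through the group in which it is higher, and its adjusted p of 0.694 in limma is given for completeness. The third probe, ILMN_2772762, had levels between 4.54 and 4.91 and was detected on no array.

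Hoxa10, a posterior cluster gene linked to progenitor expansion, had intensities from 126 to 217 on 1 probe and from 118 to 181 on the other. These values were not well above background in either group, and no fold was computed.

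**Figure D2:**
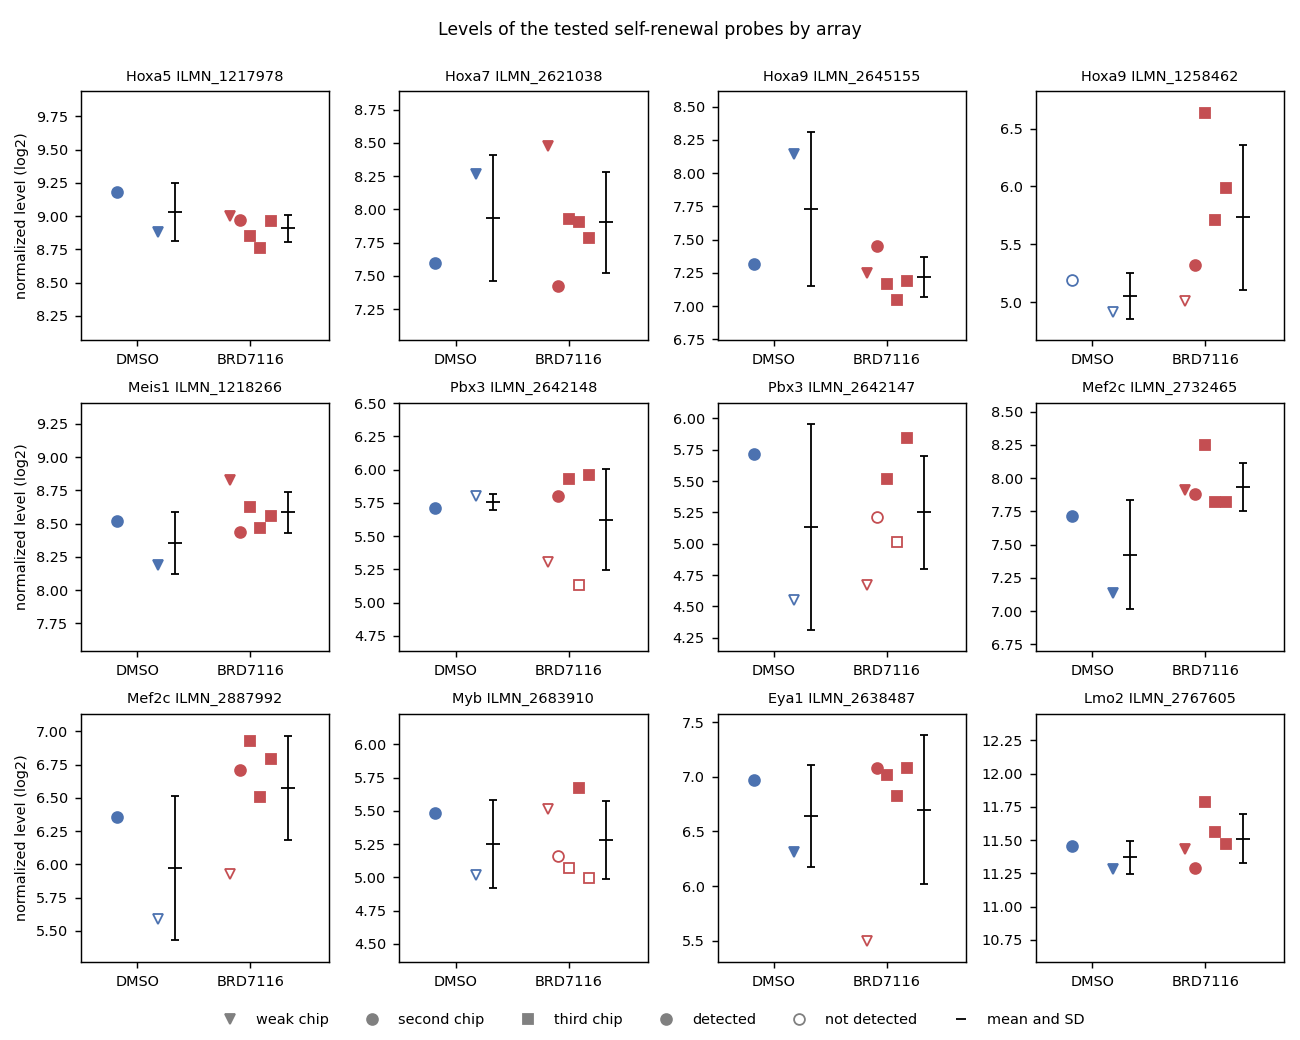
Normalized level (log2) of each tested probe on each array for DMSO and BRD7116, with marker shapes for the 3 chips, open symbols where the probe was not detected, and the mean and SD of each group (n = 2 and n = 5) beside the points. Mef2c ILMN_2732465 is the panel in which all treated arrays (7.82 to 8.25) lie above both controls (7.14 and 7.71), and Hoxa9 ILMN_2645155 shows DMSO replicate 2 alone at 8.14.

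Meis1, the TALE homeobox cofactor that binds DNA together with HOXA9, was detected on all arrays. Its intensities were 273, 686, 679, 433 and 816 with BRD7116 and 535 and 249 with DMSO. The levels were 8.83, 8.44, 8.63, 8.47 and 8.56 with BRD7116 and 8.52 and 8.19 with DMSO. BRD7116 replicate 1 and DMSO replicate 2, both on the weak chip, were the highest and the lowest of the 7 arrays, and DMSO replicate 1 lay within the treated range. The difference was 0.23 (standard error 0.19, adjusted p = 0.742, limma), or 1.17-fold with an interval from 0.86 to 1.6. It was 0.64 within the weak chip and -0.076 within the second chip. Without the weak chip it was 0.0085, and it was 0.068 without DMSO replicate 2 and 0.39 without DMSO replicate 1.

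Pbx3, the PBX cofactor that joins HOXA9 and MEIS1 on DNA, lay close to background on all 3 of its probes. Probe ILMN_2642148 was detected on 3 treated arrays and 1 control, with levels of 5.30, 5.80, 5.93, 5.13 and 5.96 against 5.71 and 5.80. Probe ILMN_2642147 was detected on 2 treated arrays and 1 control, with levels of 4.67, 5.21, 5.52, 5.01 and 5.84 against 5.71 and 4.55. The differences were -0.13 (standard error 0.27, adjusted p = 0.874) and 0.12 (standard error 0.39, adjusted p = 0.921) in limma, and in both the groups overlapped. The first probe differed by 0.087 within the second chip, and no other pair on 1 chip had both arrays detected. The remaining probe, ILMN_2650972, was detected on no array, with levels from 4.90 to 5.94.

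Mef2c, a MADS-box factor that supports self-renewal in leukemias driven by MLL fusions, had the smallest p-value of the 10 genes. Probe ILMN_2732465 had intensities of 214, 524, 552, 327 and 545 with BRD7116 and 375 and 214 with DMSO. Its levels were 7.91, 7.88, 8.25, 7.82 and 7.82 with BRD7116 and 7.71 and 7.14 with DMSO, or 7.94 ± 0.18 (SD, n = 5) against 7.43 ± 0.41 (SD, n = 2). All treated arrays lay above both controls. This was the 1 tested probe of the 12 whose groups did not overlap, against 10.8% of all tested probes (5.7% higher and 5.12% lower with BRD7116). The difference was 0.51 (standard error 0.23, unadjusted p = 0.0531, adjusted p = 0.689, limma), or 1.42-fold with an interval from 0.994 to 2.04.

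A second Mef2c probe, ILMN_2887992, pointed the same way. Its levels were 5.93, 6.71, 6.93, 6.51 and 6.79 with BRD7116 and 6.36 and 5.59 with DMSO. The weak chip gave the lowest value in each group, and the groups overlapped only through BRD7116 replicate 1. The probe was not detected on either array of the weak chip, so that 4 of 5 treated arrays and 1 of 2 controls measured it. The difference, which takes in both undetected arrays, was 0.60 (standard error 0.32, adjusted p = 0.689, limma), or 1.51-fold with an interval from 0.904 to 2.54. Within the weak chip the first probe differed by 0.78, and within the second chip the probes differed by 0.16 and 0.35. Before normalization the first probe had intensities of 214 and 214 on the weak chip. The authors' deposited log2 values for it differed by 0.34 within that chip and by 0.075 within the second. Without DMSO replicate 2 the differences of both probes were 0.22, and without DMSO replicate 1 they were 0.80 and 0.99. The control left without DMSO replicate 1 was the weak-chip array. The second probe was not detected on it, so its 0.99 is taken against a background value. Without the weak chip the differences were 0.23 and 0.41, and the authors' deposited log2 values gave 0.23 and 0.17. The third probe, ILMN_1214950, was detected on no array, with levels from 4.65 to 4.88.

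The summed levels of 5 of 9 marker lists did not overlap between the groups, with no test made on the sums. Among single tested probes 10.8% did not overlap. That share is no baseline for the sums, which add several probes and include undetected ones. The summed normalized level of 6 mature neutrophil markers was 1251 to 1479 with BRD7116 and 1511 to 1682 with DMSO, with Lcn2 and Ltf detected on all arrays and Mmp8 on none. For 6 macrophage markers the sums were 440 to 525 and 305 to 424, with the complement genes C1qa, C1qb and C1qc and the receptor gene Mrc1 detected on no array. The sums for 5 red cell markers were 247 to 324 and 430 to 465, of which Hba-a1 was detected on all arrays and the other 4 on none. For the 7 progenitor markers they overlapped, at 26491 to 29346 and 28145 to 31324. Sums for mast cells and basophils were 266 to 322 and 232 to 252, with no gene detected on all arrays and Ms4a2 and Prss34 on none. Those for T cells were 123 to 133 and 135 to 144, made up of undetected probes alone. Megakaryocyte, B cell and stromal sums overlapped, at 212 to 282 and 230 to 281, 240 to 374 and 213 to 329, and 349 to 368 and 353 to 386. None of the marker probes passed an adjusted p of 0.05 in limma. In RNA from whole samples, fewer cells of a type and less RNA per cell cannot be told apart, and the part of these markers in the Mef2c values was not tested.

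Myb, a factor that holds progenitors in an immature, dividing state, was barely above background. Probe ILMN_2683910 was detected on 1 array of each group, with levels of 5.51, 5.16, 5.07, 5.67 and 4.99 with BRD7116 and 5.48 and 5.02 with DMSO. The difference was 0.03 (standard error 0.25, adjusted p = 0.97, limma), with a fold of 1.02 and an interval from 0.68 to 1.53. The groups overlapped, and on neither chip that held both was the probe detected on both arrays. The other Myb probe, ILMN_2752817, was detected on BRD7116 replicate 3 alone and had levels from 4.78 to 5.25.

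Eya1, a phosphatase and coactivator of a class of homeobox factors, was detected on 6 of 7 arrays with probe ILMN_2638487. The levels were 5.50, 7.08, 7.02, 6.82 and 7.08 with BRD7116 and 6.97 and 6.31 with DMSO. BRD7116 replicate 1 stood far below the other arrays and was the array without detection, while the other 4 treated arrays and DMSO replicate 1 lay between 6.82 and 7.08. The difference was 0.06 (standard error 0.45, adjusted p = 0.968, limma), with a fold of 1.04 and the widest interval of the 12 probes on the log2 scale, from 0.505 to 2.14 as a fold. It was 0.11 within the second chip, and 0.37 without BRD7116 replicate 1. Probe ILMN_2686435 was detected on BRD7116 replicate 5 alone.

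Lmo2, a LIM-only protein that bridges TAL1, LDB1 and GATA factors in early blood cells, was detected with an intensity of 835 or more on every array. Its intensities were 892, 3820, 4773, 2978 and 5051 with BRD7116 and 3264 and 835 with DMSO. The levels were 11.43, 11.29, 11.79, 11.56 and 11.47 with BRD7116 and 11.46 and 11.28 with DMSO. The treated arrays lay on both sides of DMSO replicate 1. The difference was 0.14 (standard error 0.20, adjusted p = 0.821, limma), with a fold of 1.1 and an interval from 0.807 to 1.5. The weak chip alone gave 0.15 and the second chip -0.17, and the fit blocked on chip gave -0.0074. Without DMSO replicate 2 the value was 0.052, and without DMSO replicate 1 it was 0.23.

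**Figure D3:**
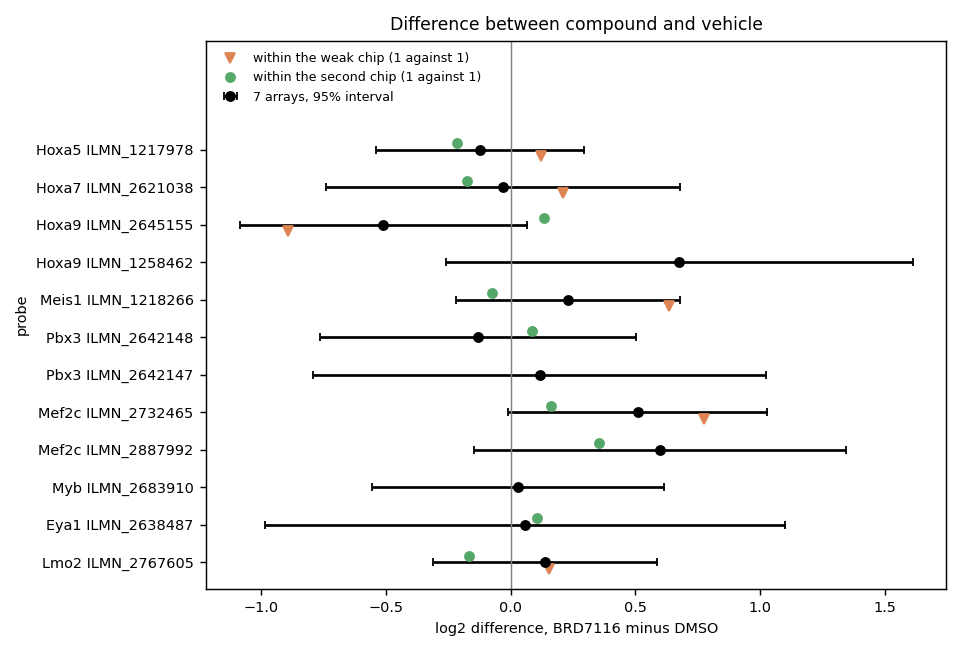
Log2 difference, BRD7116 minus DMSO, of the 12 tested probes over 7 arrays with its 95% confidence interval (black), and within each chip that held both groups, as 1 array against 1, where the probe was detected on both arrays. Every interval includes 0, and Mef2c ILMN_2732465 is the probe with both within-chip values above 0 (0.78 and 0.16). Before normalization its intensities on the weak chip were 214 and 214. The controls of Hoxa9 ILMN_1258462 were not above background, so its point stands for no fold.

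Of the 12 probes, 6 were detected on all 4 arrays of the 2 chips that held both groups. The within-chip differences had the same sign in 1 of these 6, Mef2c probe ILMN_2732465, and opposite signs in 5. Before normalization the weak-chip intensities of that Mef2c probe were 214 and 214. Over all 3138 probes detected on these 4 arrays the signs were the same in 54.5%. With chip as a block, 0 of the 12 passed an adjusted p of 0.05 and 0 had an unadjusted p under 0.05 in limma, against 0% and 12.5% of all tested probes. The block moved Eya1, undetected on 1 of the arrays, from 0.06 to -0.35 and Hoxa9 probe ILMN_2645155 from -0.51 to -0.38.

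**Figure D4:**
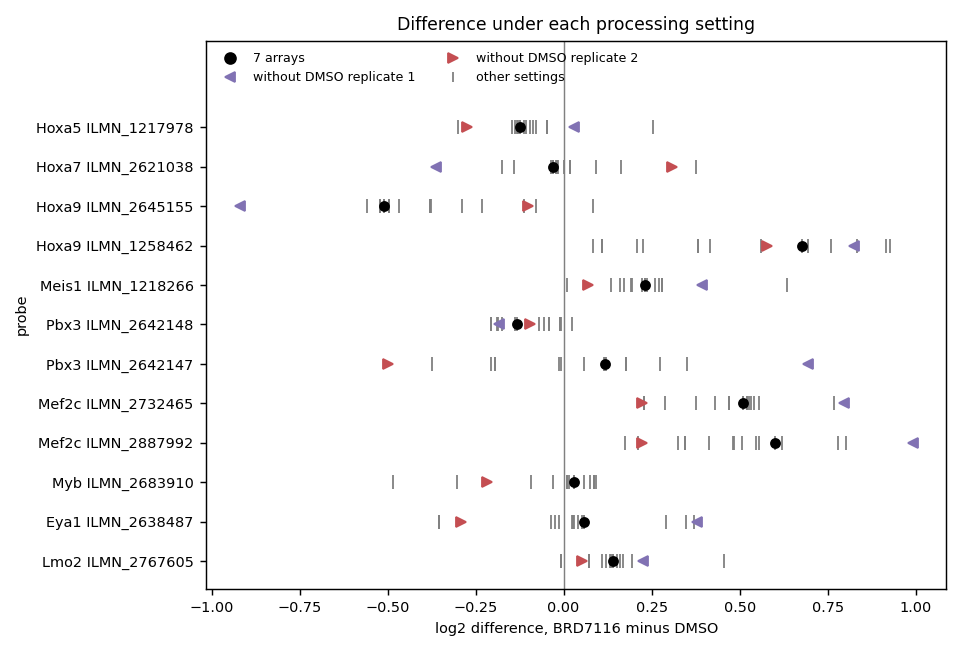
Log2 difference, BRD7116 minus DMSO, of each tested probe over 7 arrays (black) and under the other processing settings (grey ticks), with the fits that leave out either control marked. Leaving out DMSO replicate 1 or 2 moved Hoxa9 ILMN_2645155 to -0.92 or -0.10, and the Mef2c probes stay above 0 under every setting shown. Mef2c ILMN_2887992 was not detected on DMSO replicate 2, the control left without DMSO replicate 1. The values of Hoxa9 ILMN_1258462 rest on controls that were not above background.

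The other genes of these families were counted as lists, chosen with earlier results of these data known. No probe of the 8 lists passed an adjusted p of 0.05 in limma in either direction, against 0% of all tested probes. The median over all 8613 probes was 0.07. Of all tested probes, 10.8% had groups that did not overlap and 6.66% had an unadjusted p under 0.05 in limma.

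Outside the 4 described, the HOX clusters were mostly below detection: of 43 probes for 34 genes, 25 were detected on no array, 6 were tested and 0 were detected on all arrays. In the HOXA cluster, Hoxa2 reached detection on 4 arrays with 1 probe, Hoxa3 on 2, and Hoxa6, Hoxa11 and Hoxa13 on at most 1 each. The median difference of the 6 tested probes was -0.04. Hoxa4 alone had an unadjusted p under 0.05, and it is named after its value was seen. It was detected on 6 arrays, with levels of 5.21 to 5.74 and a median of 5.51 with BRD7116, against 6.04 and 6.72 with DMSO. The groups did not overlap, and the log2 difference was -0.89 (standard error 0.25, unadjusted p = 0.00645, adjusted p = 0.689, limma). It was -0.30 within the second chip, and the authors' deposited log2 values gave -0.25.

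Of the other TALE cofactors, 5 probes of 3 genes were tested, 2 with a higher and 3 with a lower mean, and their median was -0.11. Pbx2, a broadly transcribed PBX protein, had -0.11 (standard error 0.38) and Pknox1, a MEIS relative, had -0.76 (standard error 0.49). Within the weak chip and the second chip, Pknox1 differed by only -0.18 and -0.18, and Pbx2 by 0.12 and 0.12. With chip as a block Pknox1 had -0.18. Pbxip1, which binds PBX proteins, had 0.077 (standard error 0.27). In the MEF2 family and its corepressors, 6 probes were tested, 5 higher and 1 lower, with a median of 0.22. Hdac5, a class IIa deacetylase that holds MEF2 factors inactive, had treated levels of 7.99 to 8.24 against 7.84 and 7.87, which did not overlap. Its difference was 0.26 (standard error 0.17, adjusted p = 0.704, limma), with 0.37 and 0.31 within the chips.

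Among MYB relatives and coactivators, Ep300, a histone acetyltransferase that MYB recruits, had 0.075 (standard error 0.22). Mybl2, a MYB relative active in dividing cells, had treated levels of 6.19 to 6.63 against 6.99 and 7.50, with no overlap. The difference was -0.76 (standard error 0.22, unadjusted p = 0.00845, adjusted p = 0.689, limma), with -1.31 within the weak chip and -0.39 within the second. Among Eya and Dach genes and their homeobox partners 4 probes were tested, all with a lower mean, and 0 were detected on all arrays. Their median was -0.39, which was -0.056 with chip as a block. Of these, Eya3 had an unadjusted p of 0.0263 (adjusted p = 0.689, limma) at -0.58 (standard error 0.22). It was detected on 2 arrays and is named after its value was seen.

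Partners of LMO2 were well represented, with 10 tested probes of 9 genes, 6 on all arrays, and a median of 0.09. The adaptor gene Lmo4 had 0.34 (standard error 0.19), with treated levels of 10.09 to 10.49 against 9.79 and 10.10. Ldb1, which joins LMO2 complexes, had 0.10 (standard error 0.18) and the helix-loop-helix gene Lyl1 had -0.10 (standard error 0.24). Of the 37 probes for known targets of HOXA9, MEIS1 or MYB, 28 were detected on no array and 5 were tested, with a median of -0.07. Foxp1 had -0.23 (standard error 0.23) and Gfi1, a repressor in granulocyte development, had 0.33 (standard error 0.24).

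Genes of myeloid maturation were examined because HOXA9 and MEIS1 hold maturation back. Of 16 tested probes, 11 had their higher mean with BRD7116 and 5 with DMSO, with a median of 0.19, which was -0.012 with chip as a block. S100a8, a calcium-binding protein of neutrophils, had -0.25 (standard error 0.20), Ly6c1 had 0.47 (standard error 0.37) and Cebpe, a factor of granulocyte maturation, had 0.13 (standard error 0.17). Within the weak chip and the second chip they had -0.38 and -0.27 (S100a8), -0.22 and 0.21 (Ly6c1), and 0.23 and 0.11 (Cebpe). With chip as a block Ly6c1 had -0.0049. The monocyte receptor gene Cd14 had 0.48 (unadjusted p = 0.0450) and the granule gene Ltf -0.66 (unadjusted p = 0.0374). Both had an adjusted p of 0.689 in limma and are named after their values were seen.

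**Figure D5:**
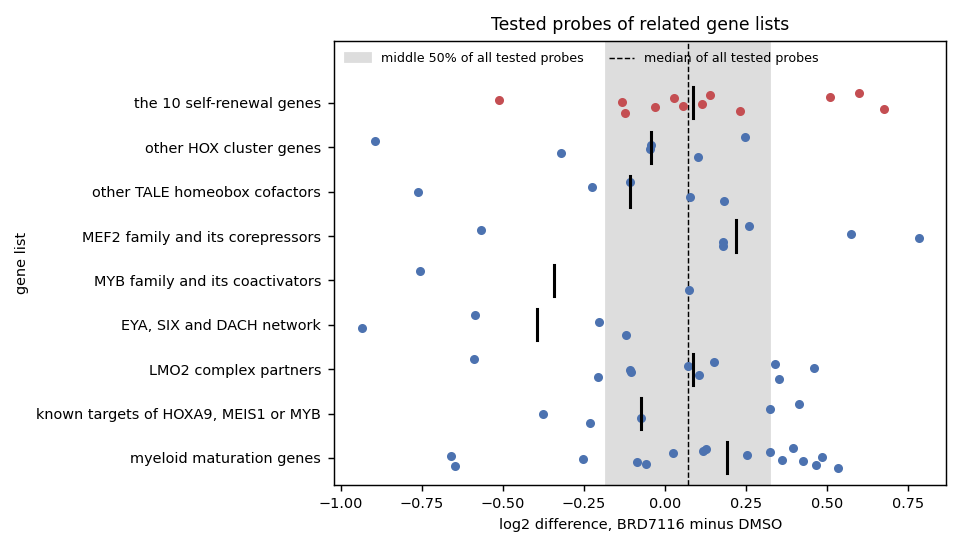
Log2 difference, BRD7116 minus DMSO, of every tested probe (points) in the 10 self-renewal genes and in 8 related lists, with each list's median (bars), over the median and the middle 50% of all 8613 tested probes. The 12 self-renewal probes have a median of 0.09, beside 0.07 for all, and the rightmost of them, Hoxa9 ILMN_1258462, had controls that were not above background.

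Likeness to other genes was measured as the root mean square difference between profiles over the 7 arrays, each centred on its own mean, among 2914 named probes detected on all arrays. These profiles share the 3 chips. The nearest to Hoxa5 were Ppm1f (0.044) and Hnrnpk (0.065), where the median of all was 0.249. For Hoxa7 they were Zdhhc13 (0.076) and Slc35b3 (0.094), and for Hoxa9 probe ILMN_2645155 Fastkd5 (0.10) and Stat5a (0.11). Meis1 was closest to Gstm2 (0.054) and Copa (0.065), Mef2c probe ILMN_2732465 to Kbtbd2 (0.090) and Faf1 (0.092), and Lmo2 to Tcf4 (0.067) and Sort1 (0.074). The medians for these 5 probes lay between 0.27 and 0.38.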

How the data were processed

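Total RNA, labelled with biotin per the labels' protocols, was measured on Illumina BeadChips. Groups came from the titles and chips from the description labels. The authors deposited 1 intensity and 1 detection p-value for each probe on each array, and per the file headers these intensities are non-normalized. They also deposited processed log2 values, with equal medians in all 7 columns and a method not given in the sources used here, which served as an alternative.

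The neqc function (limma 3.58.1, R 4.3.3) estimated background with the help of the detection p-values, added an offset of 16, made the arrays' quantiles equal and returned log2 levels. The 8613 probes with detection p under 0.05 on 2 or more arrays were fitted with lmFit and eBayes without covariates (two-sided, Benjamini-Hochberg over all kept probes, threshold 0.05). The fit was run on simulated data with independent noise and no chip effects, which cannot show how it behaves with chips that differ. Symbols came from the platform annotation, 1 for each of 23978 probes and none for 1719, and probes have no coordinates here.

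Every probe of the 10 genes is accounted for. From each related list, genes past the threshold or otherwise up to 3 genes of highest mean level among those detected on all arrays are named, and exceptions are stated. The nearest 2 profiles are named for probes detected on all arrays. The genes and lists were chosen with earlier results of these data known. Equal replicate numbers lie on different chips, so they were not taken as pairs. Alternatives changed the background correction, normalization, detection filter, averaging of probes and array weights, blocked on chip or replicate number, used the authors' values, and left out each array or the weak chip.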

Additional observations from a re-analysis of the deposited data

Results flagged for a closer look

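In 2 of the 12 tested probes, 1 treated array stood apart from the other 4 by the size of its gap to the nearest, where chance would flag about 1 in 20. For Mef2c probe ILMN_2732465 this was BRD7116 replicate 3, at a level of 8.25 against 7.91 for the next array, a gap of 0.783 of the range of the 5 arrays. Without that array the Mef2c difference was 0.43. For Eya1 probe ILMN_2638487 it was BRD7116 replicate 1, at 5.50 against 6.82 for the next, a gap of 0.835 of the range. That array is on the weak chip, where the probe was not detected, and without it the Eya1 difference was 0.37.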

How the results depend on the processing

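Over 18 alternative settings the 12 probes gave 208 values, none of which passed an adjusted p of 0.05 in limma. Of these values, 177 kept the sign of the 7-array value and 31 changed it. Some could not change: with no detection filter, or with detection on all arrays, levels and differences stayed the same. Averaging left genes with 1 tested probe as they were. The replicate block returned the same differences as the chip block, so the 177 are no measure of robustness. The 177 include 17 of Hoxa9 probe ILMN_1258462, whose controls were not above background. The count of these probes past the threshold was 0 under every setting. In settings that kept both controls, at most 2 had an unadjusted p under 0.05 in limma. This was with detection on all arrays, against 266 of all 3088 probes, and without BRD7116 replicate 1, against 1325 of all 8400. The 2 without BRD7116 replicate 1 include Hoxa9 probe ILMN_1258462. Over all probes, 1 passed with normexp, 1 with the authors' values, 1 with no detection filter and 1 with detection on all arrays (Mt1 each time), and 2 without background correction (Mt1 and Rnu6), both named after the results were seen. Leaving out 1 array gave 0 to 706, the 706 coming without DMSO replicate 1. Median scaling moved the median of all probes from 0.07 to 0.53, and its values are relative to that shift: 0.25 for Hoxa5, 0.38 for Hoxa7, -0.21 for Pbx3 ILMN_2642147 and -0.48 for Myb. Averaging the tested probes of each gene turned Hoxa9 ILMN_2645155 to 0.083 and Pbx3 ILMN_2642147 to -0.0079. The Hoxa9 average takes in ILMN_1258462. Array weights gave 0.024 for Pbx3 ILMN_2642148 and -0.091 for Myb. Without the weak chip Hoxa7 had 0.16, Pbx3 ILMN_2642147 -0.37 and Myb -0.30. With chip as a block Hoxa7 had 0.019, Pbx3 ILMN_2642147 -0.19, Eya1 -0.35 and Lmo2 -0.0074. The replicate block, in which equal numbers lie on different chips, gave the same 4 values and 0 calls (15 of all probes at unadjusted p under 0.05); its pairs deviated in opposite directions (correlations -0.52 and -0.32), and the crossed pairing is the chip block. Leaving out 1 array took Hoxa5 from -0.28 to 0.031, Hoxa7 from -0.36 to 0.31, Pbx3 ILMN_2642147 from -0.50 to 0.69, Myb from -0.22 to 0.092 and Eya1 from -0.29 to 0.38. The cause of these changes was not tested. With a single control left, its spread is taken from the treated arrays, and without DMSO replicate 1 the Myb probe missed the detection filter. Signal over background limits Pbx3, Myb, Hoxa10 and the second Hoxa9 probe.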
